A study of Homo sapiens with 5 samples.

Results

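A set of 10 genes used as markers of colon stem and progenitor cells, and of the stem-like cells of colon tumours, was followed in SW480 cells with and without knockdown of AKAP12. The genes EPCAM, CD44, CD24, PROM1, ALCAM, SOX4, SOX9, MYB, BMI1 and EPHB2 were taken by name and make 10 of the 26485 genes counted. SW480 is an established human colorectal cancer line, and AKAP12 is an anchoring protein for protein kinases A and C. The design had 2 control libraries (sgControls) and 3 AKAP12 knockdown libraries (sgAKAP12), from RNA taken 48 hours after seeding. All of these cells, controls included, carried dCas9-KRAB, a nuclease-dead Cas9 joined to a repressor domain, which guide RNAs direct to a promoter to silence it. The sample titles call the same groups shControl and shAKAP12, which names a different silencing method. No source used here states the number of clones, or that the replicates were grown separately. The p-values therefore reflect spread between libraries that may be technical.

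As background, the crypts of the colon are renewed from stem cells at their base, where Wnt signalling through beta-catenin and TCF factors is strong. EPHB2, SOX9, SOX4, CD44 and MYB are expressed towards the crypt base, and several of them are known Wnt targets. EPCAM, CD44, CD24, ALCAM (CD166) and PROM1 (CD133) are cell surface proteins used to sort tumour cells with high colony-forming or graft-forming capacity. BMI1 is a subunit of Polycomb repressive complex 1, which silences genes through chromatin. SW480 cells carry truncated APC, so that beta-catenin is active without added Wnt ligand.

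BMI1 was 1 of 3 markers (with CD44 and, on few reads, CD24) that lay higher in every knockdown library than in either control. The promoter sequences are shown for BMI1 and for EPHB2, the marker whose fall passed the test. They are the 250 bases before a RefSeq transcript start (GRCh38.p14), both on the plus strand, EPHB2 at chr1:22710588-22710837 and BMI1 at chr10:22320849-22321098. Capitals mark the GC box (GGGCGG or CCGCCC), where Sp1-type factors bind, and, in EPHB2, the E-box CAGGTG (or CACCTG), which SNAIL and ZEB repressors are known to bind.
EPHB2: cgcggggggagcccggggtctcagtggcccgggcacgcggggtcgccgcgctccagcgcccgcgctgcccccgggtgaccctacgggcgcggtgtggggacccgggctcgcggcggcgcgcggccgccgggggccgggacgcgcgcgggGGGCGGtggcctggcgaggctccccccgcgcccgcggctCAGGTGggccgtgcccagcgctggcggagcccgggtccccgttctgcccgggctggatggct
BMI1: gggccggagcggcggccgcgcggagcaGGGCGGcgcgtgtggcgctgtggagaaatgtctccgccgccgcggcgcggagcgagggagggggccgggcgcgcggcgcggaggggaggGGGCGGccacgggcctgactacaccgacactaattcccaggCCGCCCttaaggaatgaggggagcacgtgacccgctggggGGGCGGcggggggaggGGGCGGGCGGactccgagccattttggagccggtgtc
The EPHB2 window was 84.8% G or C with 1 GC box and 1 E-box, and the BMI1 window was 76.8% G or C with 6 GC boxes, overlapping ones included, and 0 E-boxes. Each of the 2 genes has a further window that is not shown, that of BMI1 at chr10:22321706-22321955 with 91.6% G or C and 5 GC boxes. The median over 35116 promoter windows of the same length was 58% G or C. Windows were found for 8 of the 10 markers, 15 windows in all. The E-box was present in 7 of the 15 windows (of ALCAM, CD24, EPHB2 and PROM1) and in 17.5% of all windows. The GC box was present in 10 of the 15 (of every matched gene but SOX4) and in 42.6% of all windows. Windows of 1 gene can overlap and are not independent. The TCF/LEF core CTTTGA (or TCAAAG), through which beta-catenin acts, was found in 1 of the 15 windows, in PROM1, and in 11.2% of all windows. The cAMP response element TGACGTCA was in 0 of 15 and in 1.65% of all. Both strands were searched. A match is a description of these letters and not a site of binding.

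The libraries held 4935096 to 9311026 counts. The limit that a count of 0 allows, 3 counts, equals 0.307 CPM in knockdown 1 to 0.735 CPM in control 1. CPM are counts scaled to a common library size, here with TMM factors, which correct for library composition. AKAP12, the targeted gene, was at 2870.2 and 1549.8 CPM in the controls and at 1159, 1063 and 1008 CPM in the knockdown, all below both controls. Its log2 change, knockdown over control as throughout, was -1.04 (SE 0.31, edgeR adjusted p = 0.0513), just outside the threshold of 0.05. It was -0.52 when control 1 was left out and -1.42 when control 2 was left out. The controls were less alike than the knockdown libraries. Across genes, which are no replicates, Pearson's r of log2 CPM was 0.90 for the controls and 0.98 for every pair of knockdown libraries. Control 1 stood apart: its r with the knockdown libraries was 0.79 to 0.81, while that of control 2 was 0.92 to 0.93, above its r with control 1. Control 1 was also the shallowest library, with a scaled depth of 0.53 relative to the mean, against 0.98 to 1.28 for the others. The median absolute difference between the controls was 0.65 on the log2 scale over tested genes with a read in every library. TERT and the genes with less than 300 bases of counted exon took 7.43% and 8.78% of the counts of control 1, 3.54% and 1.94% of those of control 2, and at most 0.249% and 0.925% of those of a knockdown library. Removing them from the fit changed no call of a marker.

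The label was checked on epithelial genes and on genes of other lineages, in CPM per kilobase of counted exon. Since the kit reads transcript 3' ends, counts need not grow with length, and division by length lowers long genes against short ones. The keratin genes KRT18 and KRT19 lay at 278 to 641 and 214 to 263 over the 5 libraries, and the intestinal factor gene CDX2 at 7.92 to 15.6. E-cadherin (CDH1) reached at most 1.58, villin (VIL1) at most 1.25 and LGALS4, an enterocyte lectin gene, at most 0.733, so these defining epithelial genes were low. Of 20 marker genes of fibroblasts, endothelium, blood and glia, 18 passed the filter on low counts, and their summed level was 502 and 699 CPM in the controls and 647 to 738 CPM in the knockdown. They included the collagen gene COL1A1 at 26.9 to 33.3 CPM per kilobase, or 159.5 to 197 CPM before division by length, and the leukocyte gene PTPRC at 2.55 to 4.13 CPM per kilobase, while CDH5 and GFAP reached at most 0.268 and 0.0853. The part of these reads in the results was not tested.

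Of the 10 markers, 9 passed the filter on low counts, and PROM1 did not. EPHB2 fell in the knockdown, 0 markers rose, and the other 8 tested did not pass the threshold. The call is edgeR's quasi-likelihood test with Benjamini-Hochberg adjustment over all 14536 tested genes, of which 22.6% were called, 11.2% higher and 11.4% lower. The share of markers called, 11.1%, was thus not above that of all genes. At an unadjusted edgeR p under 0.05, 2 markers were higher and 4 lower, against 40.5% of all genes in either direction. DESeq2 and limma-voom, which called 30.6% and 21.1% of all genes, called EPHB2 alone among the markers, as did edgeR with offsets for GC content, which called 20.2%. Scaling by library size only, which called 18.2% and moves the median of all genes by 0.20, called CD44 alone. With the replicate number as a block 1.44% of all genes and 0 markers were called. The groups did not overlap in 7 of the 9 tested markers, 3 higher and 4 lower in the knockdown. This compares with 60.1% of all tested genes, 31.6% higher and 28.5% lower. CD24, among the 3 higher, had 6 reads both in control 2 and in knockdown 2. It passed the filter only through the knockdown libraries.

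The count depended on single libraries. Without control 1 it was 3 (CD44 higher, EPHB2 and MYB lower), against 37.3% of all genes. Without control 2 it was 8 (4 higher and 4 lower), against 58.1%. Without any 1 of the knockdown libraries it was 0, in a table where no gene at all was called. In each of these fits 1 marker, of 8, 9 and 8 tested, had an unadjusted edgeR p under 0.05. Over all genes this held for 4015 of 14215, 4109 of 14275 and 3774 of 14324, with knockdown 1, 2 and 3 left out in that order. With 1 control left, that library is assumed to vary as the knockdown libraries do. Where the controls were nearly equal, as for CD44 and EPHB2, leaving out either could hardly move the log2 change. The controls lay within 0.1 of each other on the log2 scale in 8.84% of 14201 tested genes with a read in every library. The median log2 change of the 9 markers was -0.43, against 0.04 over all tested genes, and it was -0.031 and -0.61 when control 1 and control 2, in that order, were left out.

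**Figure D1:**
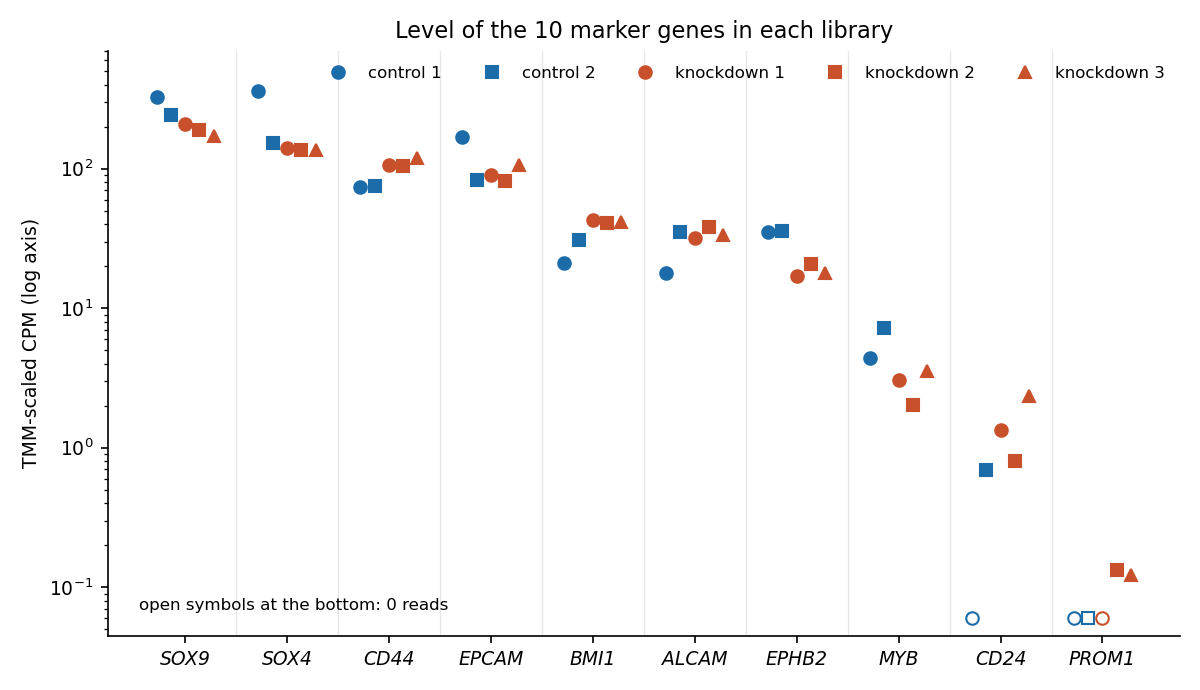
TMM-scaled CPM of the 10 marker genes (x axis, ordered by their mean in the knockdown) in each of the 5 libraries, on a log axis, with control libraries in blue, knockdown libraries in orange and open symbols at the bottom for 0 reads. The controls nearly coincide for CD44 (74.2 and 75.4 CPM) and EPHB2 (35.03 and 35.9 CPM) and stand apart for SOX4 (359.8 and 152 CPM) and EPCAM (169 and 83.4 CPM).

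EPCAM encodes a homotypic adhesion protein and is a widely used epithelial surface marker. The gene spans 47369148 to 47387028 of chromosome 2 (hg38, plus strand; 9 exons after merging of transcripts). Its level was 169 and 83.4 CPM in the controls and 89.9, 82.1 and 107 CPM in the knockdown (93.0 ± 12.7, SD, n = 3). Control 1 stood above all other libraries, and control 2 lay within the knockdown range. The log2 change was -0.43 (SE 0.32, 95% interval -1.18 to 0.32, edgeR adjusted p = 0.339). Leaving out control 1 gave 0.16 and leaving out control 2 gave -0.86, so the direction rested on control 1.

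CD44, the receptor for the matrix polysaccharide hyaluronan, spans 35138870 to 35232402 of chromosome 11 (hg38, plus strand; 19 merged exons). It was at 74.2 and 75.4 CPM in the controls and at 106, 104 and 119 CPM in the knockdown (109.7 ± 8.49, SD, n = 3). All 3 knockdown libraries were above both controls, which were nearly equal. The fitted level was 1.47-fold that of the controls, a log2 change of 0.55 (SE 0.19, 95% interval 0.11 to 0.997), and its edgeR adjusted p of 0.0739 missed the threshold. Leaving out control 1 or control 2 gave 0.54 or 0.56. By library size only it was 0.76 (edgeR adjusted p = 0.0448). Counts per gene do not separate the standard and variant CD44 isoforms.

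ALCAM, an adhesion protein of the immunoglobulin family that binds CD6, spans 105366713 to 105576913 of chromosome 3 (hg38, plus strand). It was at 17.9 and 35.2 CPM in the controls and at 31.9, 37.9 and 33.6 CPM in the knockdown (34.5 ± 3.08, SD, n = 3). Control 1 was the lowest library, while control 2 lay inside the knockdown range. The log2 change was 0.36 (SE 0.31, 95% interval -0.38 to 1.10, edgeR adjusted p = 0.419). It was -0.031 in the absence of control 1 and 0.94 in that of control 2.

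CD24 and PROM1 were close to the limit of detection. CD24, a small mucin-like protein held in the membrane by a lipid anchor, spans 106969831 to 106976855 of chromosome 6 (hg38, minus strand). It had 0 and 6 control reads and 13, 6 and 19 knockdown reads, or 0 and 0.688 CPM against 1.33, 0.804 and 2.34 CPM. The groups did not overlap, although knockdown 2 and control 2 both had 6 reads. Over all reads the knockdown level was 3.20 times that of the controls, with an exact 95% counting interval of 1.34 to 9.25, and the fit gave an edgeR adjusted p of 0.214. Leaving out control 1, the ratio was 2.18 (0.913 to 6.30). Leaving out control 2, CD24 was at least 2.04-fold higher when set against 3 counts in control 1, and the exact counting interval, which also covers the error of the knockdown reads, began at 1.58. CD24 has processed copies elsewhere in the genome, so the assignment of its few reads is uncertain. PROM1, a protein of membrane protrusions that crosses the membrane several times (15968226 to 16084000 of chromosome 4, minus strand), had 0 and 0 control reads and 0, 1 and 1 knockdown reads. All libraries were under the 3 counts that a count of 0 allows, so a PROM1 difference was not detectable at this depth.

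EPHB2 is a receptor tyrosine kinase for ephrin-B ligands. In the crypt its level falls from base to top, and it helps to keep cell populations in their places. The gene spans 22710838 to 22921500 of chromosome 1 (hg38, plus strand; 16 merged exons). EPHB2 had 143 and 313 control reads and 167, 156 and 146 knockdown reads, or 35.03 and 35.9 CPM against 17.1, 20.9 and 17.9 CPM (18.6 ± 1.99, SD, n = 3). The controls were nearly equal, and every knockdown library lay well below them. EPHB2 fell 1.90-fold, with a log2 change of -0.93 (SE 0.21, 95% interval -1.43 to -0.43, edgeR adjusted p = 0.0281). Leaving out control 1 or control 2 gave -0.95 or -0.92. By library size only the value was -0.72 and the call was lost (edgeR adjusted p = 0.0710). The authors' deposited table lists EPHB2 with a log2 fold change of -0.94 and an adjusted p of 0.00964. No other marker has an adjusted p under the threshold in the authors' deposited table, where CD44 is at 0.0926, BMI1 at 0.0841 and SOX4 at 0.0748. In the authors' deposited table AKAP12 is at -1.06 with an adjusted p of 0.0124. That table rests on the same libraries, and its direction was read from the sign it shares with the fit in 99.2% of genes.

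The relatives and ligands of EPHB2 were read beside it. EPHB3, another receptor of the crypt base, was at 1.96 and 8.37 CPM in the controls and 5.02, 4.29 and 3.20 CPM in the knockdown (log2 change -0.38, edgeR adjusted p = 0.648). EPHB4, a receptor best known from veins, was at 59.0 and 18.2 against 31.7, 30.4 and 24.1 CPM (log2 change -0.41, edgeR adjusted p = 0.536). In both genes the knockdown libraries lay between the controls, and the direction turned with the control left out: EPHB3 was at -0.99 and 1.08, and EPHB4 at 0.66 and -1.04, when control 1 and control 2 were left out. The ligand gene EFNB1 rose from 42.9 and 51.7 CPM to 83.4, 98.4 and 107 CPM, a log2 change of 1.02 (SE 0.22, edgeR adjusted p = 0.0247). EFNB2, also a ligand of EPHB receptors and named after its values were seen, fell from 30.9 and 17.1 CPM to 10.0, 12.9 and 8.73 CPM, a log2 change of -1.17 (edgeR adjusted p = 0.0460), and was at -0.70 and -1.56 with control 1 and control 2 left out.

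SOX4 and SOX9 are transcription factors with a high mobility group domain. SOX9 is made by crypt base and Paneth cells, and SOX4 is raised in many epithelial tumours. SOX9 spans 72121020 to 72126419 of chromosome 17 and SOX4, with 1 exon, 21593741 to 21598618 of chromosome 6 (hg38, both plus strand). SOX9 was at 327 and 242 CPM in the controls and at 209, 189 and 171 CPM in the knockdown (190.0 ± 18.9, SD, n = 3). Every knockdown library was below both controls. The log2 change was -0.58 (SE 0.22, 95% interval -1.10 to -0.065, edgeR adjusted p = 0.0934), with -0.35 after leaving out control 1 and -0.79 after leaving out control 2. SOX4 was at 359.8 and 152 CPM in the controls and at 141, 135 and 135 CPM in the knockdown (137 ± 3.59, SD, n = 3). The knockdown libraries spanned only 0.066 on the log2 scale and lay just below control 2, while control 1 exceeded control 2 by 1.24. The fitted log2 change of -0.90 (SE 0.35, 95% interval -1.72 to -0.078, edgeR adjusted p = 0.0997) shrank to -0.15 after leaving out control 1 and was -1.40 after leaving out control 2.

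MYB, a transcription factor that keeps colon crypt progenitors dividing, spans 135181315 to 135219173 of chromosome 6 (hg38, plus strand). It had 18 and 63 control reads and 30, 15 and 29 knockdown reads, or 4.41 and 7.23 CPM against 3.07, 2.01 and 3.57 CPM (2.88 ± 0.795, SD, n = 3). The groups did not overlap. The log2 change was -1.03 (SE 0.42, 95% interval -2.03 to -0.029, edgeR adjusted p = 0.116), -1.31 with control 1 left out and -0.61 with control 2 left out. Its relatives MYBL1 and MYBL2, the latter a gene of dividing cells, were at -0.37 and -0.47 (edgeR adjusted p = 0.455 and 0.635). MYBL2 was at 18.1 and 128 CPM in the controls, with the knockdown libraries between them at 70.5, 44.5 and 44.9 CPM. The values turned sign with the control left out, MYBL1 at 0.31 and -0.85 and MYBL2 at -1.26 and 1.56 for control 1 and control 2.

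BMI1, the Polycomb subunit, spans 22321210 to 22331485 of chromosome 10 (hg38, plus strand). It was at 21.1 and 30.6 CPM in the controls and at 43.0, 41.1 and 41.6 CPM in the knockdown (41.9 ± 0.985, SD, n = 3). All knockdown libraries were above both controls and spanned 0.065 on the log2 scale. The fitted level was 1.61-fold that of the controls (log2 change 0.69, SE 0.24, 95% interval 0.13 to 1.25), and its edgeR adjusted p of 0.0759 missed the threshold. Leaving out control 1 gave 0.45, and leaving out control 2 gave 0.99. BMI1 shares 2943 exon bases with the read-through gene COMMD3-BMI1, and reads there were counted for both. COMMD3-BMI1 held 89 and 279 control reads and 438, 326 and 353 knockdown reads, close to the 86, 267, 420, 307 and 338 of BMI1, and is no separate measurement.

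**Figure D2:**
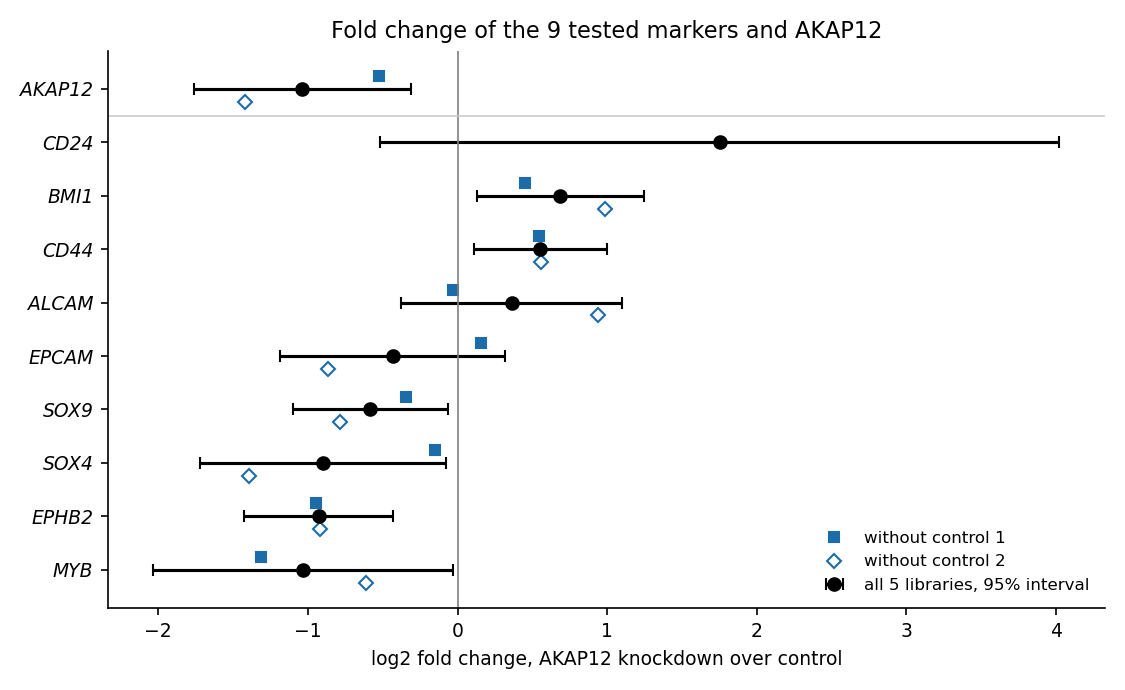
Log2 change of knockdown over control for the 9 tested markers and, above the line, AKAP12, with 95% intervals from the fit of all 5 libraries (black) and the values with control 1 left out (filled squares) and with control 2 left out (open diamonds); CD24 is shown from all libraries only. EPHB2 and CD44, whose controls nearly coincide, necessarily stay near their value whichever control is left out. EPCAM and ALCAM change sign when control 1 is left out, and SOX4 moves to -0.15.

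Levels were compared between the markers per kilobase of counted exon, over the 3 knockdown libraries, and the order depends on that division because the reads come from 3' ends. EPCAM was first with 54.1 CPM per kilobase and SOX9 next with 48.3, and their libraries overlapped, at 47.8 to 62.3 and 43.6 to 53.2. SOX4 had 28.1, CD44 16.4, BMI1 12.2, ALCAM 5.41, EPHB2 1.69, MYB 0.784, CD24 0.472 and PROM1 0.0199 CPM per kilobase. Of neighbours in this order only EPCAM and SOX9, and MYB and CD24, overlapped in the knockdown libraries. The median of the 20 markers of other lineages was 5.23 CPM per kilobase on the same scale, and their highest, the smooth muscle actin gene ACTA2, was at 36.1. Per kilobase EPCAM and SOX9 lay above all 20, SOX4 above all but 2, CD44 above all but 4, BMI1 above all but 6 and ALCAM above all but 9, while 15 of the 20 were higher than EPHB2. In CPM without division by length SOX9 was first (190.0 ± 18.9, SD, n = 3), then SOX4 (137 ± 3.59), CD44 (109.7 ± 8.49) and EPCAM (93.0 ± 12.7), and the order of the others stayed as it was. On that scale SOX9 alone lay above all 20, 1 gene, COL1A1, was higher than SOX4, CD44 and EPCAM, 5 were higher than BMI1, 7 than ALCAM and 9 than EPHB2. MYB, CD24 and PROM1 were below at least 16 of the 20 on both scales.

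Further genes of the stem cell compartment moved both ways. Of 28 such genes, 25 were tested, 3 rose and 4 fell, which is 28% against 22.6% of all tested genes, and their median log2 change was 0.21. This median was 0.19 with control 1 left out and 0.38 with control 2 left out. LGR5, the marker of crypt base stem cells that enhances Wnt signalling, had 0 and 0 control reads and 0, 1 and 1 knockdown reads, and OLFM4 and HOPX were also too low to test. ASCL2, a crypt base transcription factor, was at 36.7 and 75.9 CPM in the controls and 47.2, 56.8 and 52.0 CPM in the knockdown, between the controls (log2 change -0.12, edgeR adjusted p = 0.794). Its sign was not stable: -0.55 with control 1 left out, 0.49 with control 2 left out, 0.45 with GC offsets and 0.041 by library size only.

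Of the 4 that fell, AXIN2 and TCF7 belong to the Wnt pathway, but not every Wnt-related gene of the list fell. MYC was at 44.8 and 17.4 CPM in the controls and at 59.6, 64.0 and 81.5 CPM in the knockdown. Its edgeR adjusted p of 0.0813 missed the threshold. RNF43 and ZNRF3 had log2 changes of 0.247 and 0.212 (edgeR adjusted p = 0.394 and 0.501). These were 0.084 and 0.074 with control 1 left out, and 0.43 and 0.37 with control 2 left out. The Wnt-induced TNFRSF19 rose, as described below. AXIN2, a feedback inhibitor and standard Wnt target, was at 438 and 413 CPM in the controls and at 256, 241 and 209.7 CPM in the knockdown. Both controls were far above every knockdown library, and AXIN2 fell by 0.85 on the log2 scale (SE 0.19, edgeR adjusted p = 0.0284), with little dependence on the control left out (-0.81 and -0.90). By library size only the call was lost (-0.64, edgeR adjusted p = 0.0622). TCF7, one of the TCF factors, fell by 1.18 (edgeR adjusted p = 0.0426), and was at -0.56 and -1.62 with control 1 and control 2 left out. Its call was lost by limma-voom (adjusted p = 0.0506) and, in edgeR, by library size only (0.0601) and with GC offsets (0.0603). PTPRO, a receptor tyrosine phosphatase, went from 12.2 and 8.03 CPM down to 2.76, 3.21 and 2.95 CPM, a log2 change of -1.75 (edgeR adjusted p = 0.0219). MSI2, an RNA-binding protein of progenitor cells, fell by 0.78 (edgeR adjusted p = 0.0361), a call lost by library size only (0.0823) and when low genes were not filtered (0.0536).

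Of the 3 stem compartment genes that rose, ALDH1A1 and TNFRSF19 are described here. ALDH1A1, a retinal dehydrogenase used to sort stem-like tumour cells, rose by 1.90 (edgeR adjusted p = 0.0320) from 4 and 22 reads to 71, 57 and 51 reads, and was at 1.48 and 2.82 with control 1 and control 2 left out. TNFRSF19 (TROY), a Wnt-induced receptor of crypt base cells, rose by 1.34 (edgeR adjusted p = 0.0335) from 7.10 and 4.13 CPM to 12.6, 14.6 and 14.5 CPM, and missed the threshold with GC offsets (0.0539).

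Among 39 partners of the markers, all tested, 8 rose and 3 fell, 28.2% against 22.6% of all genes, with a median of 0.28. The median of the partners was 0.24 with control 1 left out and 0.34 with control 2 left out. Subunits of Polycomb repressive complex 1 were split. RING1, an E3 ligase of this complex for histone H2A, was at 70.8 and 70.3 CPM in the controls and at 31.2, 28.3 and 30.2 CPM in the knockdown. Both groups were tight, and RING1 fell 2.36-fold, a log2 change of -1.24 (SE 0.18, edgeR adjusted p = 0.0154), with -1.23 and -1.25 after leaving out control 1 and control 2. RNF2, the other E3 ligase, was at 9.06 and 8.49 against 13.8, 14.1 and 17.1 CPM (log2 change 0.77, edgeR adjusted p = 0.0702). PCGF2, the paralog of BMI1, was at 62.5 and 60.7 against 45.1, 32.0 and 40.0 CPM (log2 change -0.66, edgeR adjusted p = 0.0702), and its exons overlap CISD3 on the other strand.

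The polyhomeotic subunit genes PHC1 and PHC2 rose, by 2.69 and 2.93 on the log2 scale (edgeR adjusted p = 0.0372 and 0.0233). PHC1 went from 7 and 127 reads to 451, 415 and 539, and PHC2 from 11 and 129 reads to 612, 515 and 653. Control 1 was far lower than control 2 in both, so that PHC1 was at 1.94 and 5.01, and PHC2 at 2.25 and 4.70, with control 1 and control 2 left out. By library size only the call of PHC1 was lost (edgeR adjusted p = 0.0533), and its exons overlap M6PR on the other strand. CDKN2A, a cell cycle inhibitor locus that Polycomb complexes with BMI1 are known to silence, had the highest log2 change in these lists. It rose from 2.45 and 5.05 CPM to 45.6, 41.3 and 42.9 CPM, a log2 change of 3.45 (SE 0.34, edgeR adjusted p = 0.0124), and stayed at 3.10 and 4.13 with control 1 and control 2 left out. Counts per gene do not separate its p16 and p14ARF transcripts. SPINT2, an inhibitor of membrane serine proteases, rose by 2.05 (edgeR adjusted p = 0.0149) from 13.2 and 17.5 CPM to 52.4, 57.1 and 83.5 CPM. SOX13, a relative of SOX4 and SOX9, rose by 1.29 (edgeR adjusted p = 0.0390), a call lost by library size only (0.0505), and was at 0.91 and 1.90 with control 1 and control 2 left out.

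Genes of differentiated intestinal cells were often not detected. Of 30, 15 were too low to test and 9 had 0 reads in all libraries, among them SPINK4 of goblet cells and CA1 and CA2 of colonocytes. Of the 15 tested, 1 rose and 0 fell by edgeR, 6.67% against 22.6% of all tested genes. By DESeq2, which called 30.6% of all genes, 1 rose and 1 fell. At an unadjusted edgeR p under 0.05 1 rose and 1 fell, against 40.5% of all genes in either direction. The 1 called by edgeR was HES1, the Notch target that keeps progenitors from secretory fates, and thus a regulator rather than a marker of a differentiated cell. HES1 rose from 38.0 and 30.4 CPM to 100.5, 117 and 136 CPM, a log2 change of 1.79 (SE 0.24, edgeR adjusted p = 0.0136). In the epithelial identity list 1 of 15 tested genes rose and 2 fell, 20% against 22.6% of all tested genes. The median of this list was 0.12, and -0.18 and 0.86 with control 1 and control 2 left out. KRT8, a keratin gene whose exons overlap KRT18 on the other strand, rose by 1.78 (edgeR adjusted p = 0.0195), while the desmosome gene PKP3 fell by 1.64 (edgeR adjusted p = 0.0158). LSR, a protein of tricellular junctions, fell by 1.14 (edgeR adjusted p = 0.0372), with -0.61 when control 1 was left out, and its call was lost by library size only (0.0559) and with GC offsets (0.119). Of the 18 tested markers of other lineages 0 rose by edgeR, DESeq2 or limma-voom, also at an unadjusted edgeR p under 0.05. By edgeR 2 fell, so that 11.1% were called, against 22.6% of all tested genes. This depended on the control: the median log2 change of these 18 genes was 0.077, but 0.55 with control 2 left out and -0.078 with control 1 left out. The macrophage gene CD68 fell by 0.96 and the T cell gene CD3D by 1.82 (edgeR adjusted p = 0.0377 and 0.0463), and both calls were lost by library size only (0.0822 and 0.0752). The CD68 call was also lost with GC offsets (0.0513) and that of CD3D when low genes were not filtered (0.0826) and when control 2 was left out (0.177).

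**Figure D3:**
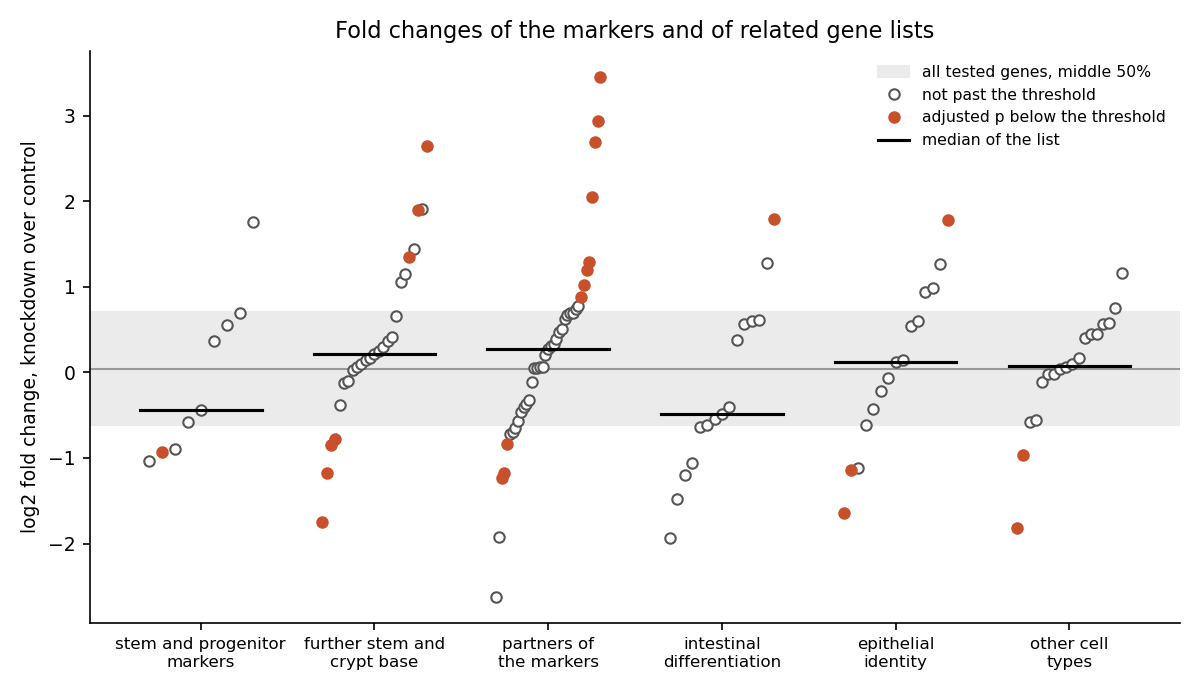
Log2 change (y axis) of every tested gene in 6 lists, ordered within each list, with genes past the edgeR threshold filled, list medians as black bars, and the middle 50% of all tested genes (-0.61 to 0.70) as a grey band. Among the markers EPHB2 alone is filled, and the largest rises are CDKN2A at 3.45, PHC2 at 2.93 and PHC1 at 2.69 among the partners.

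The markers also differ in base composition, which moved with the log2 change over all genes. Among the 13725 tested genes with a transcript of known sequence, the median log2 change went from 0.26 in the quintile of lowest GC content (below 40.9%) to -0.29 in the highest (above 58.1%). BMI1 and ALCAM, at 39.1% and 39.6% GC, lie in the lowest quintile. CD44 and MYB, at 45.3% and 43.9%, lie in the next, where the median was 0.15, and EPHB2, at 55.6%, in one with a median of -0.12. With GC-dependent offsets in the fit the call of EPHB2 was kept (log2 change -0.85, edgeR adjusted p = 0.0379). BMI1 went from 0.69 to 0.41, ALCAM from 0.36 to 0.10 and CD44 from 0.55 to 0.42 (edgeR adjusted p = 0.227, 0.826 and 0.137). SOX4, SOX9 and MYB were at -0.98, -0.64 and -1.21 with offsets (edgeR adjusted p = 0.0949, 0.0885 and 0.0766). The part of base composition in these differences was not tested further.

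**Figure D4:**
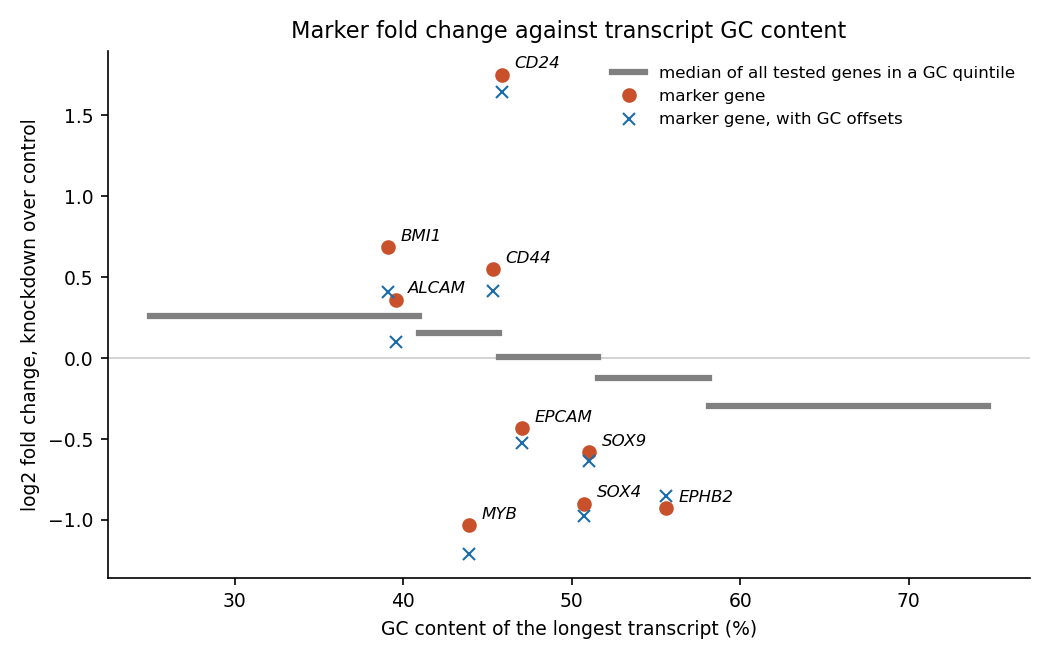
Log2 change of the 9 tested markers against the GC content of their longest transcript, from the edgeR fit (orange points) and with GC-dependent offsets (blue crosses); grey bars are the medians of all tested genes in each GC quintile. The bars step down from 0.26 to -0.29, ALCAM lies near its bar, and EPHB2 lies well below its bar at -0.93 and with offsets at -0.85.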

How the data were processed

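Gene counts of 5 SW480 libraries were used. Per the labels' protocols, the library kit was QuantSeq FWD, which reads transcript 3' ends. Per the file headers, the authors made the counts with featureCounts 1.6.2 over exons, counting a read for every gene it overlaps and with no strand option. STAR 2.7, hg38 and DESeq2 1.22 are named in the submitters' processing notes. The authors' deposited table gives, per the file headers, a log2 fold change and its standard error, a mean signal, a test statistic (score) and p-values.

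Total counts were 4935096 to 9311026. Genes were filtered with filterByExpr (minimum count 10), scaled with TMM and tested with edgeR 4.0.16 (R 4.3.3), two-sided, over 14536 genes, with Benjamini-Hochberg adjustment and a threshold of 0.05. Standard errors are the log2 change over the square root of F. Alternatives were DESeq2 1.42.0, limma-voom (limma 3.58.1), RLE scaling, library size only, removal of TERT and genes under 300 bases, no filter, a stricter filter (5 CPM in 2 libraries), the replicate number as a block and each library left out. GC offsets (lowess, span 0.2) were chosen after seeing the data. The members and the 5 lists, written from textbook knowledge, were chosen with earlier results of these data known. Named genes were the markers, AKAP12, up to 8 called genes per list with the smallest p, fixed relatives of the markers and genes whose exons overlap them. Of the genes this rule names, 2 are not reported here. Genes named for a level or for too few reads, and MYC, RNF43 and ZNRF3, were chosen after their values were seen. On simulated counts of 14238 genes for this comparison, the edgeR procedure called 63.9% of 97 genes changed 4-fold, 5.15% of 97 changed 2-fold and 7 of 14044 unchanged genes. Far fewer genes were changed there than the 22.6% called in the data. The adjustment was thus stricter in the simulation, and these shares need not hold for the data. Counting intervals cover counting error only.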

Additional observations from a re-analysis of the deposited data

How the results depend on the processing

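Single markers were fitted 79 times under alternatives other than leaving out a library. Of these fits 76 kept direction and side of the threshold, 2 lost the call (EPHB2 by library size only and with the replicate block), 1 gained it (CD44 by library size only) and 0 reversed. Leaving out a library gave 43 fits, of which 29 stayed as they were, 3 lost the call, 9 gained it and 2 reversed. Over the leave-one-out fits the count of called markers ranged from 0 to 8, of all genes from 0 to 8811, of further stem genes from 0 to 14, of partners from 0 to 27, of differentiation genes from 0 to 5, of epithelial genes from 0 to 13 and of markers of other lineages from 0 to 9. AKAP12 ranged from -1.42 to -0.52, EPCAM from -0.86 to 0.16 and ALCAM from -0.031 to 0.94. The medians ranged from -0.88 to 0.24 for differentiation, -0.18 to 0.86 for epithelial and -0.078 to 0.55 for other-lineage genes. EPHB3 ranged from -0.99 to 1.08, EPHB4 from -1.04 to 0.66, MYBL1 from -0.85 to 0.31, MYBL2 from -1.26 to 1.56 and ASCL2 from -0.55 to 0.49. AKAP12 passed the threshold by DESeq2 (-1.09), limma-voom (-0.98), without TERT and short genes (-1.04), without a filter (-0.996), with the stricter filter (-1.06) and with GC offsets (-1.14). The differentiation list had 2 calls by DESeq2, and its median was 0.026 with the stricter filter. The other-lineage count was 0 by library size only and 1 each without a filter, with the stricter filter and with GC offsets. ASCL2 was 0.041 by library size only and 0.45 with GC offsets. By library size only 1668 genes were higher and 982 lower, against 1624 and 1658. The cause of these changes was not tested.

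With the replicate number as a block, edgeR called 0 markers and 210 of all 14536 tested genes. At an unadjusted edgeR p under 0.05 the counts were 0 markers and 3320 of all tested genes. The block fit called 1 further stem gene, 2 partners and 0 genes of the differentiation, epithelial and other-lineage lists. EPHB3 was at 0.073 and MYBL2 at 0.18. The deviations of same-numbered libraries correlated at -0.053 and -0.081 across genes. With 2 controls, the deviations from their mean mirror each other, so this check rests on the difference between the controls alone. It cannot decide whether the numbers pair the libraries. The depth leaves CD24 and PROM1 at or near the limit that a count of 0 allows.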

Other observations

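The receptor and ligand families of EPHB2 and the SOX family were also read by symbol, after the values had been seen. Of 14 EPH receptor genes, 8 were tested, and 0 rose and 2 fell. These were EPHB2 and EPHA3, a receptor for ephrin-A ligands, which went from 33.6 and 15.0 CPM to 10.5, 8.57 and 7.62 CPM (log2 change -1.42, edgeR adjusted p = 0.0394), with -0.74 when control 1 was left out. All 8 ephrin genes were tested, and 1 rose (EFNB1) and 1 fell (EFNB2).

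Of 19 SOX genes, 11 were tested, 2 rose and 1 fell. One of those that rose was SOX13. The other, SOX18, an endothelial transcription factor, had 0 and 1 control reads and 16, 12 and 18 knockdown reads (edgeR adjusted p = 0.0245). Both controls were under the 3 counts that a count of 0 allows. SOX18 passed the filter on low counts only through the knockdown libraries, so its call is no independent support for a rise. SOX15 fell from 94.6 and 35.6 CPM to 24.5, 25.4 and 21.6 CPM (log2 change -1.44, edgeR adjusted p = 0.0420), with -0.57 when control 1 was left out, and its exons overlap MPDU1 on the other strand. Of all tested genes, 22.6% were called.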
